A study of Mus musculus with 18 samples.

Results

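RNA of the sg6 *Atrx* knockout clone of C3H/10T1/2 cells was compared with that of *Atrx* WT cells across all genes, in polyA-selected libraries. C3H/10T1/2 is an established mouse mesenchymal progenitor line that can take on fat, bone, cartilage and muscle fates in culture. The sg6 clone, labelled B10, is a single clone grown from cells that received Cas9 and the guide RNA sg6 against *Atrx*, and the WT cells received the Cas9 vector with no guide. The labels name no treatment for either, and 3 libraries a side were chosen by their labels, out of 18 libraries in the series. A knockout clone made with a different guide, sg5 (labelled G7), has 3 polyA libraries of its own and served to show which changes were larger in the sg6 clone. Because each genotype is 1 line, n = 3 counts libraries of that line, p-values measure the spread between these libraries, and anything else in which the lines differ is part of the comparison. The comparison of each clone with WT uses the same 3 WT libraries.

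ATRX is a chromatin remodeller that works with DAXX to place the histone variant H3.3 into heterochromatin, including telomeres, imprinted loci and silent repeats. It is lost in several sarcomas, and its deletion in mesenchymal progenitors addressed what the loss does in the cells such tumours may come from. The gene families described below were taken from lists of mesenchymal lineages, extracellular matrix, signalling pathways, innate immune responses and known heterochromatin targets. The lists and their members were chosen with earlier results of these data known. A list's share above that of all genes can therefore come in part from this choice.

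The polyA table listed 24100 genes, of which 15480 had enough counts to be tested. Library totals ran from 58918732 to 71896907 counts in sg6, 27544833 to 80772108 in WT and 161036799 to 235346363 in sg5, and no 2 libraries of a group held identical counts. All 15 mesenchymal markers passed the filter, with a summed level of 21910 to 24550 CPM (counts scaled to a common library size by TMM) in WT and 29330 to 32010 CPM in sg6. Of the markers of other cell types, the summed level was 25.3 to 32.02 CPM in WT and 17.5 to 19.5 CPM in sg6 for 12 leukocyte markers (*Adgre1* at 0), 22.8 to 36.99 and 15.4 to 20.9 CPM for 9 endothelial markers (*Cldn5* at 0), 3.36 to 6.34 and 0.695 to 1.32 CPM for 11 epithelial markers (*Krt18* at 0), and 74.4 to 92.01 and 142.5 to 187.8 CPM for 10 neural markers (*Olig2* at 0). Of these markers, *Tek*, *Map2* and *Mbp* passed as higher in sg6, and *Lyz2*, *Pecam1*, *Erg*, *Vwf*, *Cdh1*, *Krt14* and *Syt1* as lower, and their part in the results below was not tested. The targeted gene fell: *Atrx* RNA was 276, 297 and 328 CPM in the WT libraries and 122, 129 and 141 CPM in the sg6 libraries, a log2 fold change of -1.20 ± 0.10 (SE; edgeR quasi-likelihood test, adjusted p = 5.15e-05). In bulk RNA such as this, fewer cells of a type and less RNA per cell cannot be told apart.

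A gene was counted as changed when its log2 fold change was beyond 1 in either direction and its adjusted p below 0.05; all adjusted p-values come from the edgeR fit of the polyA libraries except where rRNA-depleted libraries are named. In sg6, 563 genes were higher than in WT, which is 3.64% of the genes tested, and 1167 were lower, which is 7.54%. The median log2 fold change was 1.69 among the higher genes and -2.08 among the lower genes, and 205 and 604 of them moved by more than 4-fold (log2 beyond 2). Every sg6 library lay above every WT library for 554 of the 563 higher genes and below for 1133 of the 1167 lower genes. Over all genes tested, such a separation was seen upward for 22.4% and downward for 20%. Of 1242 distinct genes in the 41 lists that were tested, 93 rose and 178 fell, together 21.8% of them.

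**Figure D1:**
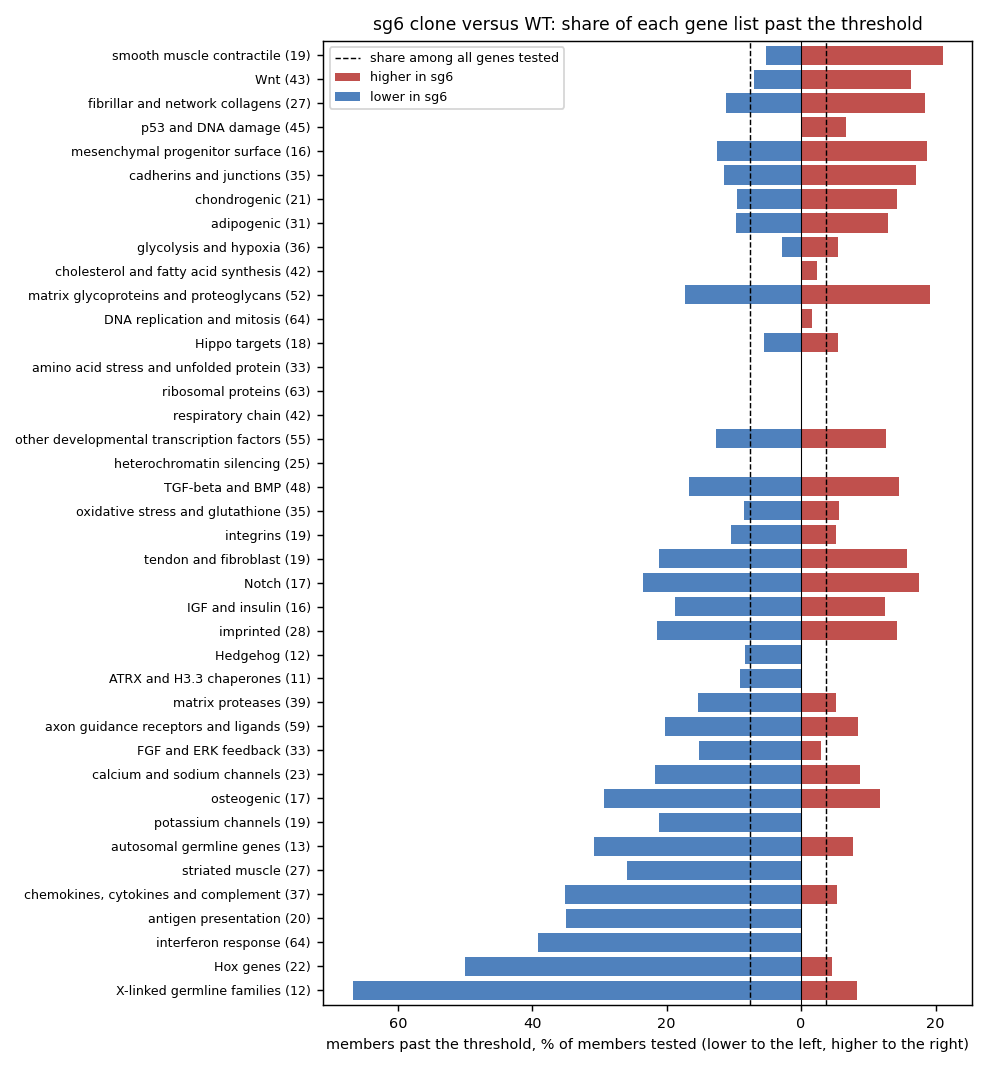
Share of tested members of each gene list that passed the threshold in the sg6 clone against WT, lower to the left in blue and higher to the right in red, with the number of members tested in parentheses; lists with fewer than 10 tested members are left out. The dashed lines mark the shares among all genes tested, 7.54% lower and 3.64% higher, and the longest bars are those of X-linked germline families, Hox genes and the interferon response, all to the left.

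Among the genes with the largest rise was *Stmn2* (chromosome 3), a regulator of microtubule stability in neurons, at 0.14, 0.275 and 0.133 CPM in WT and 23, 54.1 and 48.7 CPM in sg6, a log2 fold change of 7.67 ± 0.47 (adjusted p = 8.35e-06). *Thy1* (chromosome 9), a surface glycoprotein of fibroblasts, stood at 0.803, 1.1 and 1.09 CPM in WT and 154, 128 and 119 CPM in sg6 (log2 fold change 7.03 ± 0.19, adjusted p = 7.64e-08). *Perp* (chromosome 10), a p53 target found in desmosomes, was at 0.419, 0.286 and 0.089 CPM in WT and 33.9, 47.8 and 54.4 CPM in sg6 (log2 fold change 7.47 ± 0.46, adjusted p = 8.46e-06). These 3 genes were at about 1 CPM or below in WT and above 20 CPM in every sg6 library. *Cys1* (chromosome 12), a protein of primary cilia, rose from 0.14, 0.103 and 0.0667 CPM to 8.86, 7.6 and 9.07 CPM, and *Dgkg*, a diacylglycerol kinase with 3 counts over the WT libraries, was 475-fold higher in pooled counts (95% interval 162 to 2310, counting error only). *Bves*, *Lrp3* and *Trim44* complete the 8 genes with the largest rise; 11 of 350 genes that met the same expression and separation rule carried only a predicted name and were passed over.

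The 8 named genes with the largest fall were *Xlr3c* (82.2% of whose 31-base stretches occur in other genes), *Luzp4*, *Xist*, *Igfbp5*, *Ldb2*, *Tmem176a*, *Eya1* and *Peg3*, after 35 predicted names of 453 were passed over. *Luzp4* was at 9.85, 10.5 and 12.8 CPM in WT and at 0 in all sg6 libraries, at least 207-fold lower against a floor of 3 counts in a library, but 90.7% of its 31-base stretches occur in other annotated genes, so that its reads cannot be assigned to it alone. *Igfbp5*, a secreted binding protein of insulin-like growth factors, ranged widely in WT, at 26.7, 124 and 229.5 CPM, and was at 0.0444, 0.0161 and 0.106 CPM in sg6 (log2 fold change -11.17 ± 1.13, adjusted p = 0.000135). *Tmem176a*, a membrane protein of immune and stromal cells, fell from 13.3, 26.4 and 34.3 CPM to 0.074, 0.0321 and 0.0178 CPM. *Eya1*, a transcriptional coactivator in organ formation, went from 13.3, 17.4 and 16.5 CPM to 0.0444, 0.0161 and 0.0533 CPM (log2 fold change -8.66 ± 0.29, adjusted p = 4.01e-07). The sg5 clone was also low for *Igfbp5* (0.151, 0.271 and 0.592 CPM), *Tmem176a* (0.265, 0.157 and 0.16 CPM) and *Eya1* (0.0442, 0.0524 and 0.0678 CPM).

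The interferon response is a set of genes that cells switch on after interferon signalling or after sensing foreign nucleic acid. Their promoters often carry the interferon-stimulated response element, which STAT and IRF proteins bind. Of 64 tested members of the list, none rose and 25 fell, which is 39.1% against 7.54% of all genes, and the median log2 fold change was -0.60 against -0.01 over all genes. The 7 windows below come from promoters (RefSeq, GRCm38.p6) of members that fell, and they show the core of that element, GAAANNGAAA, which was searched on both strands; every match in a window is in capitals, and overlapping matches run together. Each window reads 5′ to 3′ on the strand of its gene. They were chosen after the values were seen, from the 11 fallen members with a match, as those with 20 bases of upstream sequence on either side of a match. *Isg15* holds 3 matches in its window, *Ifit1* and *Gbp3* hold 2, and the others hold 1.
*Isg15* (chr4:156200855-156200904, minus strand): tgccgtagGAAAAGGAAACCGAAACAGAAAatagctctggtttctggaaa
*Ifit1* (chr19:34640784-34640833, plus strand): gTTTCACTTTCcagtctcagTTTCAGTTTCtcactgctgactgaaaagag
*Gbp2* (chr3:142620584-142620633, plus strand): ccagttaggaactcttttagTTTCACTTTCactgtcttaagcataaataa
*Gbp3* (chr3:142559985-142560034, plus strand): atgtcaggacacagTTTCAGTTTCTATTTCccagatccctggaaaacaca
*Gbp7* (chr3:142530263-142530312, plus strand): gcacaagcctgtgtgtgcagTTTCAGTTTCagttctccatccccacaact
*Igtp* (chr11:58199502-58199551, plus strand): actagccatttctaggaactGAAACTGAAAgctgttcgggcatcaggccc
*Irgm2* (chr11:58214893-58214942, plus strand): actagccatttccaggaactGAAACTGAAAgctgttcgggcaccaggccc

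In 4 of these windows the element is on the opposite strand, where it reads as TTTC, 2 bases and TTTC. A promoter of 300 bases (250 before and 50 after the start) was at hand for 48 of the 64 tested members. At least 1 match was found in 23 of them (47.9%), against 1079 of 27025 genes with a promoter (3.99%). Among members that fell it was found in 11 of 14 promoters, and among members that did not pass the threshold in 12 of 34. Among all genes lower in sg6 that are not in the list, 48 of 842 promoters held it (5.70%). A match is a description of these letters and was not tested for binding.

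The guanylate-binding proteins and immunity-related GTPases, which interferon gamma induces strongly and which attack vacuoles that hold pathogens, contributed 8 of 11 tested members to those that fell. *Gbp4* was at 0.908, 2.265 and 4.18 CPM in WT and 0, 0.0482 and 0.0533 CPM in sg6 (log2 fold change -6.21 ± 0.88, adjusted p = 0.000863). *Iigp1* was at 9.15, 14.1 and 31.7 CPM in WT and 0.503, 0.996 and 1.12 CPM in sg6 (log2 fold change -4.40 ± 0.84, adjusted p = 0.00398). For both, the WT libraries differed several-fold among themselves, with replicate 1 lowest, and yet no sg6 library reached the lowest WT library.

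Of 32 effectors, 11 fell and none rose. Among these were the 2′-5′ oligoadenylate synthetases, which activate RNase L on double-stranded RNA: *Oas2* was at 1.54, 4.52 and 6.54 CPM in WT and 0.281, 0.289 and 0.373 CPM in sg6 (log2 fold change -3.75 ± 0.50, adjusted p = 0.00059), and the related *Oasl2* was at 2.69, 3.17 and 6.43 CPM in WT and 0.163, 0.337 and 0.462 CPM in sg6 (-3.69 ± 0.58, adjusted p = 0.00145). *Oas1g* had 58 counts over the WT libraries and 1 over the sg6 libraries, and 54.6% of its 31-base stretches are shared with *Oas1a*, of whose own stretches 68.7% are in *Oas1g*. *Ifi44*, an effector of the type I response, fell from 2.76, 3.84 and 9.72 CPM to 0.429, 0.514 and 0.408 CPM (log2 fold change -3.59 ± 0.57, adjusted p = 0.00153). Of 9 sensors of nucleic acid and their adaptors, 4 fell, including *Sting1*, the adaptor of cytosolic DNA sensing, at 13.1, 13.9 and 9.98 CPM in WT and 1.29, 1.38 and 1.3 CPM in sg6 (log2 fold change -3.22 ± 0.22, adjusted p = 1.58e-05). Of 12 signalling genes, 2 fell (16.7% against 7.54% of all genes). The most abundant members that did not pass were *Ifitm3*, an inhibitor of virus entry (190, 194 and 177 CPM in WT, 187, 253 and 258 CPM in sg6, with 20.5% of its stretches in other genes), and *Jak1*, the kinase of the interferon receptors (180.2, 178 and 162 CPM in WT and 207, 191 and 181 CPM in sg6). The leukocyte markers, whose summed level was also lower in sg6, had 1 of 7 tested members that passed, and their part in this fall was not tested. In the sg5 clone, 16 of the 64 members were lower than WT, 2 were higher and the median log2 fold change was -0.37.

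**Figure D2:**
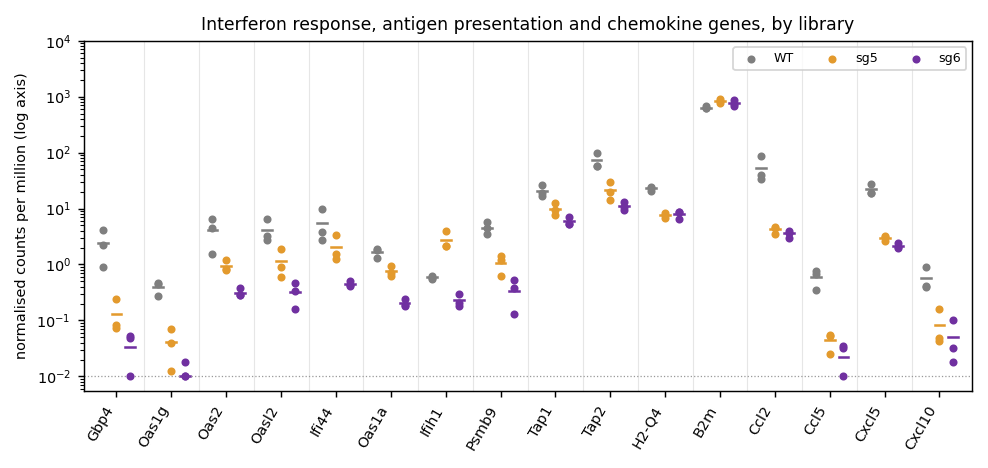
Normalised counts (CPM, log axis) of interferon response, antigen presentation and chemokine genes in each library of WT (grey), the sg5 clone (orange) and the sg6 clone (purple); points are libraries, short lines are group means, and a value under 0.01, such as 0, is drawn on the dotted line at 0.01. The sg6 points lie below the WT points in every gene shown but *B2m*, and for *Ifih1* the sg5 points lie above WT.

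Many genes of antigen presentation are also induced by interferon. Of 20 tested members, 18 of class I presentation and 2 of class II, 7 were lower (35.0% against 7.54%), none was higher, and 19 of the 20 had a negative log2 fold change, with a median of -0.81. The 7 were 4 genes of peptide loading, the class I chains *H2-Q4* and *H2-M3*, and *Cd74*, the invariant chain of class II molecules. In the peptide-loading machinery 4 of 10 members passed. The immunoproteasome subunit *Psmb9* was at 3.53, 4.42 and 5.78 CPM in WT and 0.518, 0.129 and 0.373 CPM in sg6 (log2 fold change -3.74 ± 0.48, adjusted p = 0.000495). The peptide transporter subunits were *Tap2* at 58, 58.8 and 100.3 CPM in WT and 10.7, 9.51 and 13.3 CPM in sg6 (-2.69 ± 0.31, adjusted p = 0.000262) and *Tap1* at 16.7, 19.2 and 26 CPM in WT and 5.27, 5.37 and 7.17 CPM in sg6 (-1.80 ± 0.23, adjusted p = 0.000493). Of the class I heavy chains, *H2-Q4* fell from 21, 23.9 and 23.8 CPM to 6.38, 8.71 and 8.77 CPM (-1.53 ± 0.15, adjusted p = 0.000118), a gene that shares 38.4% of its 31-base stretches with other genes. *B2m*, the light chain of every class I molecule, did not pass, at 620.4, 619 and 678 CPM in WT and 728, 685 and 864 CPM in sg6.

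Of 37 tested chemokines, cytokines and complement genes, 13 fell (35.1%) and 2 rose. Of 13 chemokines, which recruit leukocytes, 6 fell and none rose. *Ccl2*, which draws monocytes, was at 86.6, 40.1 and 34.1 CPM in WT and 3.68, 4.03 and 3.04 CPM in sg6 (log2 fold change -3.90 ± 0.35, adjusted p = 7.08e-05), and *Cxcl5*, which draws neutrophils, was at 19.3, 18.8 and 27.8 CPM in WT and 1.95, 2.04 and 2.4 CPM in sg6 (-3.37 ± 0.19, adjusted p = 6.51e-06). *Cxcl12*, the most abundant chemokine and a retention signal for progenitor cells, moved by -0.51 ± 0.14 on the log2 scale and did not pass. Of 10 complement genes 5 fell, whereas *Cd59a*, an inhibitor of the membrane attack complex, rose from 2.24, 3.99 and 4.31 CPM to 18, 14.6 and 19.8 CPM (2.29 ± 0.26, adjusted p = 0.000251).

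*Xist*, the noncoding RNA that coats and silences the inactive X chromosome, was nearly absent from the sg6 clone. It stood at 1500, 1949 and 2164 CPM in the WT libraries, 1346, 1338 and 1619 CPM in the sg5 libraries and 0.459, 0.418 and 0.55 CPM in the sg6 libraries, a log2 fold change of -11.94 ± 0.24 against WT (adjusted p = 1.09e-08) and of -11.56 against sg5 (adjusted p = 2.67e-08). The gene lies at chrX:103460373-103483233 in GRCm38. Its antisense partner *Tsix* had 32 counts over the WT libraries and 3 over the sg6 libraries; as the strand setting of the counting was not stated, reads of these overlapping genes cannot be told apart. Their neighbours of the X inactivation centre, *Ftx* (12.8, 15.8 and 18.4 CPM in WT, 15.2, 16.2 and 17.2 CPM in sg6) and *Jpx* (5.17, 5.55 and 6.05 CPM in WT and 3.67, 3.74 and 3.62 CPM in sg6), did not pass. Among all 527 tested genes of the X chromosome, 10 were higher in sg6 (1.90% against 3.64% over all genes) and 78 lower (14.8% against 7.54%). Their median log2 fold change was -0.07 in sg6 and -0.01 in sg5. Of the 527, 1 was higher and 9 were lower past the threshold against both WT and sg5, beside 0.562% and 0.924% of all genes. For the rest of the 78 a difference from the sg5 clone was not shown.

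The X-linked germline families, which most somatic cells keep silent by DNA methylation, had 12 tested members. Of these, 8 fell and 1 rose (66.7% and 8.33%, against 7.54% and 3.64% over all genes). *Xlr3a* was at 1.75, 2.37 and 1.76 CPM in WT and at 0 in every sg6 and sg5 library, at least 36.7-fold lower in sg6, and 59.7% of its 31-base stretches occur in other genes, mainly its copy Xlr3b. *Rhox5*, a homeobox gene of the testis and placenta, fell from 11.4, 9.0 and 8.98 CPM to 0.429, 0.37 and 0.426 CPM (log2 fold change -4.58 ± 0.18, adjusted p = 7.58e-07). *Nxf3*, a germ-cell member of the mRNA export factor family, was at 33.1, 57.3 and 72.3 CPM in WT, 0.414, 1.12 and 1.6 CPM in sg6 and 0, 0.00436 and 0.0308 CPM in sg5. The widely expressed relatives *Maged1* (446, 478 and 517 CPM in WT, 432, 491 and 489 CPM in sg6) and *Magee1* (40.5, 44.8 and 42 CPM in WT and 39.7, 42.4 and 45 CPM in sg6) did not pass and overlapped between groups. Of 13 tested autosomal germline genes, 4 fell and 1 rose (30.8% and 7.69%). *Dppa2*, a factor of pluripotent cells, was at 2.65, 3.29 and 3.14 CPM in WT and 0.0296, 0.161 and 0.195 CPM in sg6 (-4.59 ± 0.41, adjusted p = 6.59e-05). Other genes hold 33.8% of its 31-base stretches.

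Hox genes record position along the body axis and stay expressed in fibroblasts according to where they came from. Of 22 tested members, 11 fell, which is a share of 50% against 7.54%, and 1 rose. The fall was unequal between the clusters: 4 of 5 tested HoxB genes and 5 of 7 HoxC genes fell, against 2 of 9 HoxA genes, whose median log2 fold change was 0.08. *Hoxb6* was at 0.664, 0.995 and 1.27 CPM in WT and at 0 in all sg6 libraries, at least 18.3-fold lower. *Hoxc6* was at 3.77, 2.31 and 2.65 CPM in WT and 0.0296, 0.113 and 0.0533 CPM in sg6 (log2 fold change -5.45 ± 0.42, adjusted p = 3.04e-05). The HoxB and HoxC genes were expressed at low levels in WT, whereas the most abundant members, *Hoxa3* (26.6, 23.5 and 27.8 CPM in WT, 46.3, 44.7 and 47.4 CPM in sg6) and *Hoxa2* (24.6, 26.7 and 28.6 CPM in WT and 25.2, 30.7 and 36.2 CPM in sg6), did not pass.

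**Figure D3:**
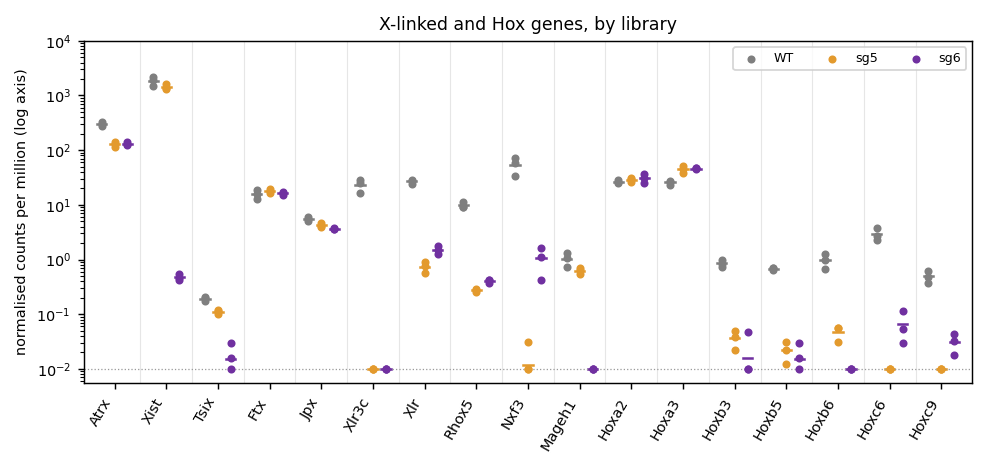
Normalised counts (CPM, log axis) of X-linked and Hox genes in each library of WT (grey), the sg5 clone (orange) and the sg6 clone (purple); points are libraries, short lines are group means, and values under 0.01 are drawn on the dotted line at 0.01. *Xist*, *Tsix* and *Mageh1* are low in sg6 alone, whereas *Xlr3c*, *Rhox5* and the HoxB and HoxC genes are low in both clones.

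Imprinted genes, which are expressed from 1 parental allele and include known ATRX targets, moved both ways. Of 28 tested, 4 rose and 6 fell (14.3% and 21.4%, against 3.64% and 7.54% over all genes). *Peg3*, a zinc-finger protein expressed from the paternal allele, was at 122, 121 and 104 CPM in WT and 0.459, 0.289 and 0.231 CPM in sg6 (log2 fold change -8.44 ± 0.67, adjusted p = 3.58e-05). *H19*, a maternally expressed noncoding RNA, went from 11.2, 9.15 and 9.12 CPM to 0.40, 0.643 and 0.213 CPM (-4.54 ± 0.58, adjusted p = 0.000504), and *Plagl1*, a transcription factor, from 42.1, 35.4 and 49.1 CPM to 7.58, 3.68 and 3.87 CPM (-3.06 ± 0.36, adjusted p = 0.000339). *Peg10*, a gene derived from a retrotransposon, rose from 1.85, 1.19 and 0.867 CPM to 10.1, 32.7 and 18.1 CPM (4.01 ± 0.53, adjusted p = 0.000583). No sg6 library overlapped WT for any of these 4, which were named for the size of their change. Over all genes tested, 22.4% were separated in this way upward and 20% downward.

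The summed level of the collagen list and of the matrix glycoprotein and proteoglycan list was higher in sg6 while single members passed the threshold in either direction. The collagens summed to 22470 to 25810 CPM in WT and 29340 to 36900 CPM in sg6, and the matrix glycoproteins and proteoglycans to 33830 to 38190 CPM and 50020 to 57300 CPM, without overlap. Of all single genes tested, 22.4% were separated upward in this way. Such a sum is set mostly by its most abundant members and does not describe the typical member. The median log2 fold change of the matrix glycoprotein and proteoglycan list was 0.03. In sg5 these lists summed to 26810 to 28130 CPM and 48460 to 53140 CPM, also above WT without overlap. The matrix proteases and inhibitors summed to 7845 to 9714 CPM in WT and 8642 to 10710 CPM in sg6, with overlap. Among 27 collagens, 5 rose and 3 fell (18.5% and 11.1%, against 3.64% and 7.54% over all genes). In 17 the log2 fold change was positive, and the median was 0.45. Of the basement membrane and network collagens 3 of 10 rose and none fell. *Col12a1*, which decorates fibrils, rose from 396, 384 and 243 CPM to 1284, 1189 and 860 CPM (log2 fold change 1.70 ± 0.22, adjusted p = 0.00051), whereas the transmembrane collagen *Col23a1* fell from 10.3, 22.6 and 39.4 CPM to 0.444, 0.691 and 0.746 CPM (-5.27 ± 0.69, adjusted p = 0.000583). The main fibrillar chains *Col1a1* (6039, 5344 and 5773 CPM in WT, 7863, 8954 and 6580 CPM in sg6) and *Col1a2* (6003, 6129 and 6556 CPM in WT and 8318, 8327 and 7366 CPM in sg6) moved by 0.45 ± 0.14 and 0.36 ± 0.1 on the log2 scale and stayed within the fold threshold.

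Among 52 matrix glycoproteins and proteoglycans, 10 rose and 9 fell (19.2% and 17.3%, against 3.64% and 7.54% over all genes), with a median log2 fold change of 0.03. *Thbs1*, a platelet and fibroblast glycoprotein that activates TGF-beta, rose from 55.2, 31.4 and 41.4 CPM to 802, 373 and 175 CPM (log2 fold change 3.4 ± 0.53, adjusted p = 0.00139). *Eln*, the elastin precursor, was at 81.2, 54 and 31.3 CPM in WT and 916, 237 and 157 CPM in sg6 (2.98 ± 0.73, adjusted p = 0.0135), with replicate 1 highest in both groups; without WT replicate 2 it no longer passed. *Fbn2*, the fibrillin of developing tissue, fell from 110.1, 168 and 179.8 CPM to 18.6, 14.3 and 11.9 CPM (-3.35 ± 0.25, adjusted p = 2.46e-05), *Tgfbi*, an adhesive protein, from 111, 207 and 329 CPM to 8.61, 17.4 and 35 CPM (-3.41 ± 0.58, adjusted p = 0.00236) and *Efemp1*, a fibulin, from 50.4, 84.9 and 109 CPM to 8.43, 16.1 and 17.4 CPM (-2.54 ± 0.32, adjusted p = 0.000452). Of 39 matrix proteases and inhibitors, 6 fell and 2 rose (15.4% and 5.13%, against 7.54% and 3.64% over all genes), and 3 of 14 ADAMTS proteases fell with none rising. *Adamts9*, which cleaves proteoglycans, was at 9.29, 9.96 and 10.9 CPM in WT and 0.636, 0.787 and 0.817 CPM in sg6 (-3.75 ± 0.17, adjusted p = 2.03e-06). Of 19 integrin chains, which bind this matrix, 1 rose and 2 fell (5.26% and 10.5%, near the shares over all genes): *Itga11*, a collagen receptor, was at 0.454, 0.389 and 0.20 CPM in WT and 3.15, 3.54 and 2.22 CPM in sg6 (3.10 ± 0.27, adjusted p = 6.04e-05), and *Itga8* fell from 5.13, 11.2 and 16.4 CPM to 0.414, 0.386 and 0.337 CPM (-4.84 ± 0.42, adjusted p = 5.81e-05).

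Lineage genes of mesenchymal progenitors were split. Of 27 striated muscle genes, 7 fell (25.9% against 7.54% over all genes) and none rose. The myogenic factor *Myog* had 70 counts over the WT libraries and 1 over the sg6 libraries. Of 17 sarcomere genes 5 fell, all from low levels, such as *Tnni2* from 1.19, 1.16 and 0.689 CPM to 0.281, 0.209 and 0.071 CPM (log2 fold change -2.40 ± 0.39, adjusted p = 0.00177). Of 19 smooth muscle contractile genes, 4 rose and 1 fell (21.1% and 5.26%, against 3.64% and 7.54% over all genes). *Myl9*, the regulatory light chain of smooth muscle myosin, rose from 0.489, 0.641 and 1.62 CPM to 3.27, 4.19 and 4.01 CPM (2.05 ± 0.39, adjusted p = 0.00379), whereas *Mylk*, the kinase that phosphorylates this light chain, fell from 35.4, 47.9 and 64.1 CPM to 3.24, 2.54 and 2.75 CPM (-4.11 ± 0.31, adjusted p = 2.66e-05). Actin and its binding partners moved upward in 3 of 11 cases, with *Acta2* at 393, 352 and 368 CPM in WT and 1048, 1231 and 1030 CPM in sg6.

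Of 31 adipogenic genes, 4 rose and 3 fell (12.9% and 9.68%, against 3.64% and 7.54% over all genes). *Lpl*, which releases fatty acids from lipoproteins, rose from 10.7, 8.73 and 9.5 CPM to 76.9, 60.7 and 70.6 CPM (log2 fold change 2.85 ± 0.29, adjusted p = 0.000139). *Pparg*, the master regulator of fat cells, was at 23.7, 15.9 and 16.3 CPM in WT and 50.5, 40.6 and 42.6 CPM in sg6 (1.27 ± 0.17, adjusted p = 0.000682), and *Cebpa*, which acts with it, at 8.63, 8.71 and 7.09 CPM in WT and 16.8, 19.5 and 20.6 CPM in sg6 (1.22 ± 0.12, adjusted p = 9.2e-05). *Fabp4*, a lipid carrier of mature fat cells, did not pass in sg6 (1.22, 0.652 and 0.334 CPM in WT, 4.93, 1.56 and 1.06 CPM in sg6, adjusted p = 0.0948), and the groups overlapped. *Ppargc1a*, a coactivator of mitochondrial biogenesis, fell from 96, 69.5 and 83.2 CPM to 2.93, 2.25 and 1.92 CPM (-5.12 ± 0.59, adjusted p = 0.000273), and *Dlk1*, an inhibitor of fat cell formation, from 11.5, 6.65 and 10 CPM to 0.814, 0.498 and 0.835 CPM (-3.71 ± 0.71, adjusted p = 0.004). Abundant lipid genes such as *Fasn*, the fatty acid synthase (-0.02 ± 0.24), and *Plin4*, a lipid droplet coat protein (0.98 ± 0.18, adjusted p = 0.00313), stayed within the fold threshold.

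Of 17 osteogenic genes, 2 rose and 5 fell (11.8% and 29.4%, against 3.64% and 7.54% over all genes). Among the falls, that of *Sp7* was lost in 6 of 9 fits without 1 library and that of *Dmp1* in 7 of 9. *Omd*, a proteoglycan of bone, rose from 12.3, 16 and 11.2 CPM to 77.8, 76.3 and 69.8 CPM (log2 fold change 2.50 ± 0.15, adjusted p = 8.47e-06), while the transcription factors *Msx2* (-1.62 ± 0.25, adjusted p = 0.00136) and *Msx1* (-1.50 ± 0.24, adjusted p = 0.00155) fell. Of 21 chondrogenic genes, 3 rose and 2 fell (14.3% and 9.52%, the latter near the 7.54% over all genes), and the cartilage collagens went apart. *Col2a1* was at 778, 525 and 405 CPM in WT and 1760, 1214 and 724 CPM in sg6 (1.11 ± 0.36, adjusted p = 0.0421), with overlapping libraries. Its call was lost without sg5 replicate 2, either of sg6 replicates 1 and 2, or either of WT replicates 2 and 3. *Col9a1* fell from 128, 110.3 and 98.5 CPM to 55.7, 23.4 and 20.5 CPM (-1.75 ± 0.44, adjusted p = 0.0159), which was lost without sg6 replicate 2 or 3. *Sox9*, the master regulator of cartilage, was at 447, 439 and 436 CPM in WT and 549.8, 559.6 and 661 CPM in sg6 and stayed within the fold threshold. Of 19 tendon and fibroblast genes, 3 rose and 4 fell (15.8% and 21.1%, against 3.64% and 7.54% over all genes). The tendon gene *Tnmd* fell from 42, 39.7 and 31 CPM to 2.83, 5.37 and 6.75 CPM (-2.92 ± 0.28, adjusted p = 0.000108). The homeobox gene *Meox2* fell from 10.7, 7.63 and 6.09 CPM to 0.0592, 0.0161 and 0.0888 CPM (-7.20 ± 0.40, adjusted p = 5.5e-06). *Fmod*, which organises collagen fibrils, was at 19.4, 9.51 and 11.4 CPM in WT and 234, 36.1 and 28.3 CPM in sg6 (2.90 ± 0.88, adjusted p = 0.0338). This rise no longer passed without sg6 replicate 1, without WT replicate 2 or without WT replicate 3.

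Of 16 surface markers of mesenchymal progenitors, 3 rose and 2 fell (18.8% and 12.5%, against 3.64% and 7.54% over all genes). Besides *Thy1*, *Eng*, a TGF-beta co-receptor, rose from 21.4, 17.1 and 20.9 CPM to 70.8, 68.3 and 58 CPM (log2 fold change 1.74 ± 0.11, adjusted p = 1.33e-05), and *Ly6a*, the stem cell antigen Sca-1, was at 468, 350.5 and 192 CPM in WT and 953, 632 and 754 CPM in sg6 (1.21 ± 0.28, adjusted p = 0.0102); *Ly6a* no longer passed without WT replicate 3, and 31.9% of its 31-base stretches occur in other genes. The low-affinity nerve growth factor receptor *Ngfr* fell from 0.489, 0.572 and 0.534 CPM to 0.104, 0.0643 and 0.124 CPM (-2.46 ± 0.29, adjusted p = 0.000341). *Cd34*, a sialomucin of progenitor cells, did not pass at 0.873, 1.11 and 0.667 CPM in WT and 0.37, 0.546 and 0.533 CPM in sg6 (-0.90 ± 0.34, adjusted p = 0.0796). *Pdgfrb*, the platelet-derived growth factor receptor of stromal cells, stayed within the fold threshold at 404, 389 and 465 CPM in WT and 578, 541 and 550.3 CPM in sg6.

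In the TGF-beta and BMP pathways, 7 of 48 tested members rose and 8 fell (14.6% and 16.7%, against 3.64% and 7.54% over all genes). Of 14 ligands 3 rose and none fell, including the stress-induced *Gdf15* (0.0699, 0.0458 and 0.0667 CPM in WT, 0.607, 1.08 and 0.87 CPM in sg6, log2 fold change 3.88 ± 0.37, adjusted p = 9.28e-05). Of 17 inhibitors and targets 5 fell, including the secreted BMP antagonist *Nog* (1.43, 1.2 and 0.801 CPM in WT and 0.133, 0.0482 and 0.0888 CPM in sg6, -3.62 ± 0.36, adjusted p = 0.00013). In the Wnt pathway, 7 of 43 rose and 3 fell (16.3% and 6.98%, against 3.64% and 7.54% over all genes), with no change past the threshold among 10 ligands. Of the frizzled receptors, *Fzd9* rose from 5.48, 5.32 and 7.03 CPM to 23, 22.8 and 28.7 CPM (2.06 ± 0.19, adjusted p = 7.81e-05), and *Frzb*, a secreted decoy for Wnt, from 4.96, 2.53 and 1.78 CPM to 34.5, 13.2 and 14.7 CPM (2.80 ± 0.57, adjusted p = 0.00577), while the antagonist *Dkk2* fell from 1.71, 2.4 and 2.73 CPM to 0.281, 0.289 and 0.426 CPM (-2.80 ± 0.30, adjusted p = 0.000195).

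In the Notch pathway, 3 of 17 members rose and 4 fell (17.6% and 23.5%, against 3.64% and 7.54% over all genes). Its target *Hey1* rose from 0.244, 0.172 and 0.156 CPM to 6.67, 2.49 and 1.26 CPM (log2 fold change 4.24 ± 0.75, adjusted p = 0.00268), and the ligand *Jag2* fell from 5.28, 4.54 and 4.67 CPM to 0.858, 0.916 and 0.852 CPM (-2.46 ± 0.17, adjusted p = 1.45e-05), while the receptors *Notch1* and *Notch2* stayed within the fold threshold (0.75 ± 0.14 and -0.02 ± 0.10). In FGF and ERK signalling, 1 of 33 rose and 5 fell (3.03% and 15.2%, against 3.64% and 7.54% over all genes). The rise, that of *Spry4*, was lost in 5 of 9 fits without 1 library. *Spry1*, a feedback inhibitor, went from 3.35, 4.55 and 3.98 CPM to 0.429, 0.353 and 0.337 CPM (-3.41 ± 0.36, adjusted p = 0.000181), and the ligand *Fgf10* from 57.6, 74 and 109.5 CPM to 7.68, 20.1 and 29.8 CPM (-2.07 ± 0.42, adjusted p = 0.00571). *Etv1*, a transcription factor downstream of ERK, was at 21.9, 22.1 and 14 CPM in WT and 5.98, 13.8 and 6.32 CPM in sg6 (-1.15 ± 0.39, adjusted p = 0.0492), a fall that was lost without sg5 replicate 3, sg6 replicate 1 or 3, or WT replicate 1 or 2. In Hedgehog signalling, 1 of 12 fell (8.33%, near the 7.54% over all genes) and none rose. Of 16 IGF and insulin genes, 2 rose and 3 fell (12.5% and 18.8%). Of 18 Hippo targets 1 rose and 1 fell (5.56% each, near the shares of 3.64% and 7.54% over all genes). *Ccn2*, a matricellular growth factor, rose from 54.5, 33.2 and 26.2 CPM to 405, 216 and 116 CPM (2.70 ± 0.46, adjusted p = 0.00221). *Ankrd1*, a muscle nuclear cofactor, fell from 12.4, 8.64 and 5.25 CPM to 2.4, 1.56 and 0.995 CPM (-2.40 ± 0.40, adjusted p = 0.00204).

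Axon guidance molecules, which also steer the migration of mesenchymal cells, had 12 of 59 members lower and 5 higher (20.3% and 8.47%, against 7.54% and 3.64% over all genes). The Slit receptors *Robo1* (14.4, 13.1 and 13.8 CPM in WT, 0.651, 0.434 and 0.515 CPM in sg6, log2 fold change -4.68 ± 0.38, adjusted p = 3.9e-05) and *Robo2* (11.3, 10.9 and 13.4 CPM in WT and 0.547, 0.225 and 0.355 CPM in sg6, -4.97 ± 0.80, adjusted p = 0.00172) fell, and the semaphorin *Sema3e* rose from 0.873, 0.801 and 0.60 CPM to 18.6, 9.3 and 8.04 CPM (3.99 ± 0.61, adjusted p = 0.00125). Of 35 cadherins and junction proteins, 6 rose and 4 fell (17.1% and 11.4%, against 3.64% and 7.54% over all genes). *Cdh13*, a cadherin without a cytoplasmic tail, was at 23.4, 23 and 23 CPM in WT and 76.4, 84.7 and 109.6 CPM in sg6 (1.96 ± 0.15, adjusted p = 3.34e-05). *F11r*, a junctional adhesion molecule, was at 0.594, 0.721 and 0.645 CPM in WT and 2.92, 5.19 and 4.96 CPM in sg6 (2.71 ± 0.37, adjusted p = 0.000673). Of 19 potassium channel genes, 4 fell (21.1%) and none rose, and the fall of *Kcnab1* was lost in 6 of 9 fits without 1 library. Of 23 calcium and sodium channel genes, 5 fell and 2 rose (21.7% and 8.7%). The sodium channel *Scn2a* was at 3.39, 3.47 and 4.42 CPM in WT and 21, 20.7 and 25.5 CPM in sg6 (2.57 ± 0.15, adjusted p = 6.24e-06). Other developmental transcription factors rose and fell in equal number, 7 each of 55 (12.7% each, against 3.64% and 7.54% over all genes). The homeobox gene *Emx2* rose from 0.908, 0.778 and 0.667 CPM to 6.12, 6.72 and 5.91 CPM (3.01 ± 0.15, adjusted p = 2.7e-06).

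Few housekeeping genes passed. None of 63 ribosomal protein genes, 42 respiratory chain genes, 33 genes of the amino acid and unfolded protein responses or 25 heterochromatin silencing genes passed the threshold, with median log2 fold changes of 0.11, -0.04, 0.30 and -0.16. Of 64 genes of DNA replication and mitosis, only *Cdkn1a*, the inhibitor of cyclin-dependent kinases that p53 induces, passed (119, 124 and 102 CPM in WT, 221, 288 and 322 CPM in sg6, log2 fold change 1.26 ± 0.14, adjusted p = 0.000199), while 53 of the 64 had a negative log2 fold change and the median was -0.28. Their summed level was 7506, 6669 and 3904 CPM in WT and 6210, 5857 and 4170 CPM in sg6, lowest in replicate 3 of either group, and the groups overlapped. Of 45 p53 and DNA damage genes, 3 rose (6.67% against 3.64% over all genes) and none fell. The rise of *Pmaip1* was lost in 5 of 9 fits without 1 library and after genes were centred on the median of their chromosome. Of 35 oxidative stress genes, 2 rose and 3 fell (5.71% and 8.57%, near the shares of 3.64% and 7.54% over all genes). The heme-degrading enzyme *Hmox1* was at 64.1, 48.1 and 53 CPM in WT and 205, 129 and 128 CPM in sg6 (1.48 ± 0.22, adjusted p = 0.00118). Of 36 glycolysis and hypoxia genes 2 rose and 1 fell (5.56% and 2.78%), and of 42 cholesterol and fatty acid genes 1 rose (2.38%). Of 11 genes for ATRX and H3.3 chaperones, *Atrx* alone passed; *H3f3b*, which encodes H3.3, was at 1315, 1525 and 1633 CPM in WT and 859, 941 and 982 CPM in sg6 (-0.69 ± 0.099, adjusted p = 0.000955).

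To describe what the sg6 clone did beyond the sg5 clone, genes were taken that passed the threshold in sg6 against WT and also, in the same direction, in sg6 against sg5. By itself the sg5 clone was higher than WT for 493 genes (3.18%) and lower for 1078 (6.96%), and of the genes changed in sg6, 337 higher and 849 lower ones passed in sg5 as well. Beyond sg5, 87 genes were higher (0.562% of the genes tested) and 143 lower (0.924%). Among the 87, 54 did not pass in sg5 against WT, 26 also rose there but by less, and 7 fell there. Among the 143, 80 did not pass in sg5, 53 also fell but by less, and 10 rose. A further 165 higher and 228 lower genes passed in sg6 and not in sg5 without passing between the clones, so that a difference between the clones was not shown for them.

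**Figure D4:**
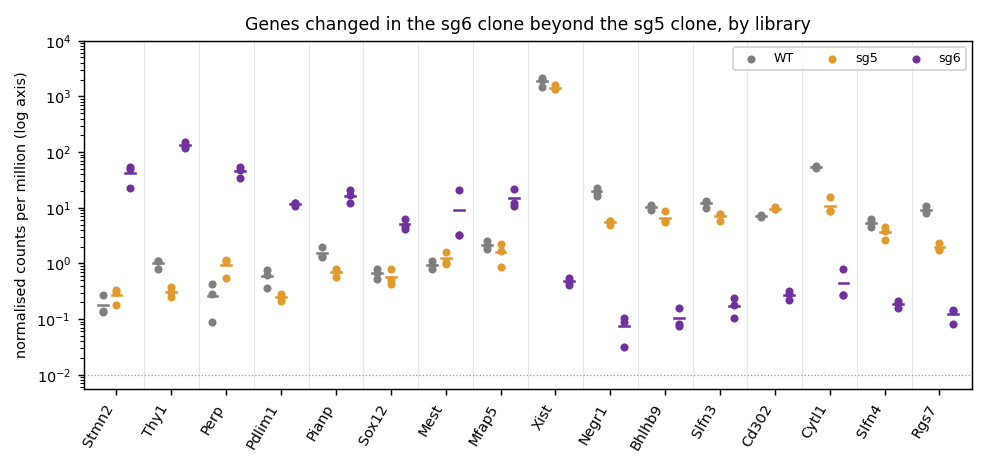
Normalised counts (CPM, log axis) of the named genes changed furthest in the sg6 clone beyond the sg5 clone, in each library of WT (grey), sg5 (orange) and sg6 (purple); points are libraries and short lines are group means. The first 8 genes lie higher in every sg6 library than in any other library, and the last 8 lie lower.

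The genes that rose furthest beyond sg5, ranked by the smaller of the changes against WT and sg5, were *Stmn2*, *Thy1*, *Perp*, *Pdlim1*, *Pianp*, *Sox12*, *Mest* and *Mfap5* (3 of 41 eligible genes had predicted names). *Stmn2* was at 0.177, 0.327 and 0.302 CPM in sg5, close to its WT level, and differed between the clones by 7.26 on the log2 scale (adjusted p = 1.75e-05). *Thy1* was at 0.246, 0.305 and 0.37 CPM in sg5, below its WT level, and differed by 8.76 (adjusted p = 3.29e-08). *Perp* was at 0.537, 1.15 and 1.09 CPM in sg5, with a difference of 5.60 (adjusted p = 4.56e-05). For all 3, every sg5 library lay below 2 CPM and every sg6 library above 20 CPM.

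*Pdlim1*, a cytoskeletal LIM protein, was at 0.629, 0.767 and 0.356 CPM in WT, 12.1, 12.4 and 10.8 CPM in sg6 and 0.215, 0.283 and 0.253 CPM in sg5. *Pianp*, a membrane glycoprotein, was at 1.33, 1.35 and 1.94 CPM in WT, 12.1, 17 and 20.7 CPM in sg6 and 0.808, 0.563 and 0.734 CPM in sg5. The transcription factor *Sox12* was at 0.524, 0.686 and 0.778 CPM in WT, 4.1, 6.33 and 4.65 CPM in sg6 and 0.789, 0.423 and 0.493 CPM in sg5. The log2 difference between the clones was 5.54 for *Pdlim1* (adjusted p = 6.05e-06), 4.57 for *Pianp* (adjusted p = 1.75e-05) and 3.15 for *Sox12* (adjusted p = 0.000248). *Mest*, an imprinted hydrolase of mesoderm, varied more between libraries: it was at 20.6, 3.29 and 3.25 CPM in sg6, highest in replicate 1, against 1.08, 0.938 and 0.801 CPM in WT and 1.63, 0.995 and 1.07 CPM in sg5 (difference 2.88, adjusted p = 0.0456), and the difference between the clones no longer passed when any single WT or sg5 library was left out. *Mfap5*, a microfibril protein, was at 1.85, 2.48 and 2.05 CPM in WT, 21.7, 12 and 10.9 CPM in sg6 and 2.22, 1.65 and 0.851 CPM in sg5 (3.24, adjusted p = 0.00125).

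The genes that fell furthest beyond sg5 were *Xist*, *Negr1*, *Bhlhb9*, *Slfn3*, *Cd302*, *Cytl1*, *Slfn4* and *Rgs7* (9 of 88 eligible genes had predicted names). *Negr1*, a neuronal adhesion molecule of the immunoglobulin family, was at 16.4, 19.4 and 23 CPM in WT, 0.0888, 0.0321 and 0.106 CPM in sg6 and 5.81, 4.91 and 5.71 CPM in sg5 (difference between the clones -6.16, adjusted p = 5.69e-06). *Bhlhb9*, an X-linked gene, was at 9.22, 11.4 and 10.5 CPM in WT, 0.074, 0.0803 and 0.16 CPM in sg6 and 8.62, 5.7 and 5.46 CPM in sg5 (-5.99, adjusted p = 1.36e-05). *Cd302*, a C-type lectin receptor, was at 7.37, 6.97 and 6.8 CPM in WT, 0.222, 0.321 and 0.284 CPM in sg6 and 10.1, 9.34 and 9.46 CPM in sg5 (-5.13, adjusted p = 4.25e-07). In sg5, *Negr1* was also reduced, while *Bhlhb9* and *Cd302* stayed within the fold threshold against WT.

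*Cytl1*, a secreted protein of cartilage precursors, was at 55.2, 53.4 and 52.3 CPM in WT, 0.784, 0.273 and 0.266 CPM in sg6 and 15.4, 8.58 and 8.62 CPM in sg5 (-4.59, adjusted p = 0.000184). *Rgs7*, a regulator of G protein signalling, was at 8.03, 9.03 and 10.6 CPM in WT, 0.148, 0.0803 and 0.142 CPM in sg6 and 2.37, 1.76 and 1.79 CPM in sg5 (-3.98, adjusted p = 3.88e-05). Both therefore fell in either clone and further in sg6. The Schlafen genes *Slfn3* (9.78, 12.8 and 13.2 CPM in WT, 0.104, 0.241 and 0.178 CPM in sg6, 5.66, 7.77 and 7.79 CPM in sg5) and *Slfn4* (4.51, 5.56 and 6.23 CPM in WT, 0.207, 0.193 and 0.16 CPM in sg6 and 2.58, 3.79 and 4.45 CPM in sg5) are neighbours on chromosome 11 whose expression interferon can raise, and other genes hold 30.0% of the 31-base stretches of *Slfn3* and 20.1% of those of *Slfn4*, in part each other's.

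In 17 genes the clones went opposite ways past the threshold, 7 higher in sg6 and lower in sg5 and 10 the reverse; the genes named next beside the listed ones were chosen after their values were seen. *Hgf*, the hepatocyte growth factor secreted by stromal cells, was at 2.34, 3.23 and 4.74 CPM in WT, 0.414, 1.03 and 1.1 CPM in sg6 and 14, 19.4 and 22.1 CPM in sg5 (log2 fold change -2.04 ± 0.38 in sg6, adjusted p = 0.00353, and 2.42 in sg5). *Ptgis*, the prostacyclin synthase, was at 12.2, 12.6 and 14.3 CPM in WT, 3.52, 4.77 and 4.26 CPM in sg6 and 23.7, 31.1 and 30 CPM in sg5. The listed genes among the 17 were *Thy1*, *Ifih1*, *Epha4* and *Ndn*. *Ifih1*, the sensor MDA5 of long double-stranded RNA, was at 0.559, 0.584 and 0.623 CPM in WT, 0.177, 0.209 and 0.302 CPM in sg6 and 4.0, 2.16 and 2.11 CPM in sg5, and its fall in sg6 (-1.37 ± 0.35, adjusted p = 0.0174) was lost without sg6 replicate 1 or 2 or without WT replicate 2. *Epha4*, an ephrin receptor, was at 2.9, 2.37 and 2.31 CPM in WT, 0.252, 0.289 and 0.195 CPM in sg6 and 5.76, 6.45 and 5.19 CPM in sg5, and *Ndn*, an imprinted growth suppressor, at 9.92, 10.2 and 14.1 CPM in WT, 3.36, 3.44 and 3.14 CPM in sg6 and 34.7, 26.5 and 28.3 CPM in sg5.

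Of the 1242 list genes tested, 13 were higher beyond sg5 (1.05% against 0.562% of all genes) and 29 lower (2.33% against 0.924%). Among interferon response genes, *Sting1* (2.41, 3.96 and 3.1 CPM in sg5, difference between the clones -1.25, adjusted p = 0.00852), *Oas1a* (0.934, 0.624 and 0.691 CPM, -1.87, adjusted p = 0.00364) and *Ifih1* were lower in sg6, and so were *H2-M3*, a nonclassical class I chain (-1.26, adjusted p = 0.0155), and the chemokine *Cxcl1* (-1.11, adjusted p = 0.0127). The difference between the clones was lost for *H2-M3* without sg5 replicate 2 or 3 and for *Cxcl1* without sg5 replicate 3 or sg6 replicate 2. In axon guidance, *Robo1* (4.46, 1.81 and 2.03 CPM in sg5, -2.37, adjusted p = 0.00532), *Sema6a* (-1.31, adjusted p = 0.00139), *Efna3* (-1.56, adjusted p = 0.00481) and *Epha4* (-4.55, adjusted p = 5.69e-06) were lower and *Sema3d*, a secreted semaphorin, was higher (1.35, adjusted p = 0.036), a difference that 6 of 9 fits without 1 library lost. Among receptors and effectors of growth factor pathways, the FGF receptor *Fgfr2* was at 52, 40.6 and 39 CPM in WT, 12.1, 5.3 and 6.45 CPM in sg6 and 44.4, 24.8 and 25.8 CPM in sg5 (-1.99, adjusted p = 0.00862), and the Hedgehog effector *Gli2* at 4.16, 4.72 and 6.63 CPM in WT, 1.02, 0.707 and 0.373 CPM in sg6 and 3.35, 4.18 and 3.23 CPM in sg5 (-2.34, adjusted p = 0.00375). The Notch ligand *Dll1* (-2.21, adjusted p = 0.0029) and *Dlk1* (-4.33, adjusted p = 0.00834, lost without sg6 replicate 2) were lower, and the Wnt receptor *Fzd6* was higher, at 0.838, 0.538 and 0.645 CPM in WT, 2.99, 3.46 and 2.54 CPM in sg6 and 1.21, 1.14 and 0.864 CPM in sg5 (1.48, adjusted p = 0.00412).

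Among lineage and matrix genes, *Ebf2*, an early factor of brown fat precursors (0.838, 0.915 and 1.27 CPM in WT, 2.62, 2.65 and 3.05 CPM in sg6, 0.852, 1.18 and 1.23 CPM in sg5), *Myl9* (1.05, 1.23 and 0.814 CPM in sg5), the laminin chain *Lama3* and the complement C1 inhibitor *Serping1* (1.19, 0.664 and 0.534 CPM in WT, 5.47, 4.93 and 3.68 CPM in sg6 and 0.808, 0.907 and 0.53 CPM in sg5) were higher in sg6 beyond sg5. *Mylk* (9.86, 5.93 and 5.12 CPM in sg5), *Msx1* (6.46, 4.97 and 4.4 CPM in sg5), *Fbn2* (54.7, 43 and 36.2 CPM in sg5), *Adamts9* (2.61, 2.16 and 2.11 CPM in sg5), the melanoma cell adhesion molecule *Mcam* and the T-box factor *Tbx1* (16.5, 19.3 and 26.3 CPM in WT, 3.42, 2.38 and 2.33 CPM in sg6 and 6.74, 6.43 and 6.7 CPM in sg5) were lower. Of the junction and channel genes, the epithelial cadherin *Cdh1* was at 4.82, 4.26 and 2.51 CPM in WT, 0.266, 0.562 and 0.408 CPM in sg6 and 0.827, 1.31 and 1.57 CPM in sg5, and the potassium channel *Kcnh2* at 1.82, 1.68 and 2.73 CPM in WT, 0.148, 0.273 and 0.231 CPM in sg6 and 2.34, 1.71 and 2.36 CPM in sg5. The difference between the clones was lost when 1 library was left out in 6 of 9 fits for *Mylk* and *Cdh1* and in 5 of 9 for *Myl9* and *Mcam*. The fall of *Mcam* against WT was lost in 3 of these 9 fits, without sg6 replicate 3, WT replicate 1 or WT replicate 2, and the rise of *Lama3* without WT replicate 2. The extracellular superoxide dismutase *Sod3* was at 87.8, 87.9 and 106 CPM in WT, 29.4, 34.9 and 32.7 CPM in sg6 and 119, 112 and 114 CPM in sg5 (-1.83, adjusted p = 1.54e-05). *Mageh1*, an X-linked MAGE gene, was at 0 in all sg6 libraries, at 0.734, 1.05 and 1.31 CPM in WT and at 0.688, 0.545 and 0.648 CPM in sg5, at least 19.4-fold below WT.

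Genes were also summarised by chromosome. Over tested genes, the median log2 fold change of sg6 against WT was 0.36 on chromosome 12, 0.35 on chromosome 18, 0.28 on chromosome 8, 0.24 on chromosome 13 and 0.22 on chromosome 14, and -0.22 on chromosome 5 and -0.16 on chromosome 11. In sg5 the same chromosomes had medians of 0.33, 0.40, 0.27, -0.06, 0.23, -0.09 and -0.26. Chromosome 13 was the one with the widest gap between the clones, a median of 0.32 in sg6 against sg5, and 55 of its 593 tested genes were higher in sg6 than in WT (9.27% against 3.64%). Copy number was not measured, and its part in these medians was not tested. After each gene was centred on the median of its chromosome, 525 genes were higher and 1141 lower.

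**Figure D5:**
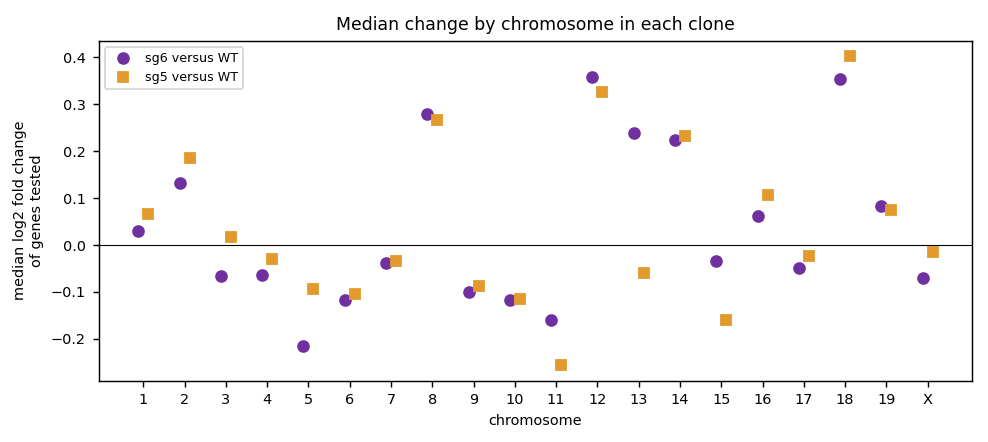
Median log2 fold change of the tested genes of each chromosome in the sg6 clone against WT (purple circles) and in the sg5 clone against WT (orange squares). The clones share the raised medians of chromosomes 8, 12, 14 and 18, and on chromosome 13 sg6 lies at 0.24 and sg5 at -0.06.

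The rRNA-depleted libraries of the same clone, 3 against 3 of WT, were prepared and counted in a different way and gave a second measurement of the line. Among 13303 genes tested there, 287 were higher in the clone (2.16%) and 477 lower (3.59%). Of the 563 genes higher in polyA RNA, 462 were tested, 440 had the same sign, 236 passed as higher and none as lower. Of the 1167 lower genes, 779 were tested, 762 had the same sign, 420 passed as lower and none as higher. Of the genes beyond sg5, 59 of the higher and 119 of the lower ones were tested, and 45 and 93 of them passed in the same direction against WT. Fewer passed in that direction against the rRNA-depleted libraries of sg5 as well, 29 of the 59 and 40 of the 119, beside 0.316% and 0.338% of all genes tested there. Of the genes named as furthest beyond sg5, *Mest*, *Mfap5* and *Slfn3* did not pass against sg5 there (adjusted p = 0.581, 0.195 and 0.677), *Slfn4* had too few counts to be tested, and *Slfn3* was at 2.48 CPM in WT, 0.0138 CPM in sg6 and 0.0672 CPM in sg5 (means, SD 0.741, 0.0239 and 0.0119, n = 3). Against WT, *Xist* had a log2 fold change of -11.34 there (adjusted p = 7.1e-10), *Thy1* of 6.43 (adjusted p = 4.42e-07), *Stmn2* of 8.86 (adjusted p = 1.98e-06), *Perp* of 9.35 (adjusted p = 1.97e-06), *Gbp4* of -7.83 (adjusted p = 0.00302) and *Sting1* of -2.45 (adjusted p = 0.000111). *Pianp*, *Mest* and *Mfap5* did not pass against WT there (adjusted p = 0.19, 0.205 and 0.141), nor did *Tnmd* (-0.30, adjusted p = 0.753), *Prg4*, a joint lubricant (-0.27, adjusted p = 0.788), or *Itga11* (0.42, adjusted p = 0.876). *Dlk1* and *Ebf2* did not pass there against WT (adjusted p = 0.19 and 0.126) or against sg5 (adjusted p = 0.484 and 0.32).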

How the data were processed

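PolyA-selected RNA of C3H/10T1/2 cells was sequenced in 3 libraries each of WT, the sg6 clone and the sg5 clone, and rRNA-depleted RNA of the same lines in 9 further libraries. The authors deposited expected counts per gene for the polyA libraries, estimated with Salmon on the UCSC known genes of mm10 and summed per gene with tximport; the deposited values were whole, so rounding changed 0 of them. Read counts per gene and transposable element locus, made with STAR and TElocal, were deposited for rRNA-depleted RNA. The strand setting is not given in the sources used here.

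Groups came from the sample labels. Gene IDs were matched to RefSeq (GRCm38.p6), with 24045 of 24100 found. Genes were filtered with filterByExpr (minimum count 10, minimum total 15), scaled by TMM and tested with edgeR 4.0.16 (quasi-likelihood test, R 4.3.3) over 9 polyA libraries with 1 term per group. Standard errors were the log2 fold change divided by the square root of F. A call needed a log2 fold change beyond 1 and a Benjamini-Hochberg adjusted p below 0.05. CPM are counts scaled to a common library size with the TMM factors. The rRNA-depleted genes and loci were fitted in the same way. Intervals cover counting error only, at 95%, by the exact Clopper-Pearson method. Floors put 3 counts in the shallowest library of a group in place of its 0 and carry no interval. Named genes were *Atrx*, the 8 furthest changed in each direction against WT and beyond sg5 with no overlap between groups and log2 CPM averaging 1 or more (predicted names passed over), up to 6 called and the 2 most abundant uncalled members of each list, listed members beyond sg5, and *Pparg*, *Cebpa*, *Fabp4*, *Etv1* and *Cd34*. Same-numbered sg6 and sg5 libraries deviated together from their group means (r = 0.336, 0.277 and 0.373) and so were taken as pairs, from the data, as the labels give only the number; reported values are from the fit without the block. Results of 2 of these genes are not reported here. Members and lists were chosen with earlier results of these data known. Alternatives included DESeq2 1.42.0, another scaling, other filters, thresholds and samples, thinned counts, a replicate block and leaving out each library. On simulated counts with changes of 4-fold or more, 186 of 200 changed genes were recovered with 1 false call. Of those changed by 4-fold, 96 of 107 were recovered. Smaller changes nearer the threshold were not simulated.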

Additional observations from a re-analysis of the deposited data

Results flagged for a closer look

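For 63 named genes the change against WT differed between the sg6 and sg5 clones by the edgeR test of sg6 against sg5, past the same threshold as the other comparisons and in the direction of the sg6 change. Most were named because they passed this test, so their number is not a further result. Over all genes tested, 0.562% were higher and 0.924% lower beyond sg5. In parentheses is the log2 difference, sg6 minus sg5; the WT libraries are common to both changes and drop out of it.

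The genes that rose against WT in sg6 and fell in sg5 included *Thy1* (8.76), *Pdlim1* (5.54), *Pianp* (4.57), *Scamp5* (2.94), *Klhl29* (2.42) and *Fsd1* (7.10). Those that fell in sg6 and rose in sg5 were *Ifih1* (-3.59), *Epha4* (-4.55), *Ndn* (-3.17), *Hgf* (-4.46), *Ptgis* (-2.75), *Zic5* (-5.11), *Scrn1* (-3.42), *Krba1* (-2.28), *Maob* (-4.98) and *Cntnap5b* (-3.38). Against WT, the rise of *Klhl29* in sg6 was lost in 13 of 19 alternatives, among them 7 of 9 fits without 1 library, and the fall of *Cntnap5b* in 5 of 9, of *Ifih1* in 3 of 9 and of *Scrn1* in 1 of 9 (without WT replicate 1). *Hgf* is a growth factor and *Ptgis* an enzyme of prostacyclin synthesis.

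The genes higher in sg6 that did not fall past the threshold in sg5 were *Dgkg* (2.42), *Stmn2* (7.26), *Perp* (5.60), *Sox12* (3.15), *Mest* (2.88), *Mfap5* (3.24), *Ebf2* (1.35), *Myl9* (1.89), *Lama3* (2.79), *Serping1* (2.64), *Cd59a* (1.14), *Fzd6* (1.48), *Sema3d* (1.35) and *Cacna1h* (2.16). The genes lower in sg6 that did not rise past the threshold in sg5 were *Xist* (-11.56), *Negr1* (-6.16), *Bhlhb9* (-5.99), *Slfn3* (-5.35), *Cd302* (-5.13), *Cytl1* (-4.59), *Slfn4* (-4.26), *Rgs7* (-3.98), *Dlk1* (-4.33), *Mylk* (-1.29), *Msx1* (-1.56), *Mcam* (-2.12), *Fbn2* (-1.58), *Adamts9* (-1.62), *Sting1* (-1.25), *Oas1a* (-1.87), *H2-M3* (-1.26), *Cxcl1* (-1.11), *Dll1* (-2.21), *Fgfr2* (-1.99), *Gli2* (-2.34), *Robo1* (-2.37), *Sema6a* (-1.31), *Efna3* (-1.56), *Cdh1* (-1.59), *Pcdh9* (-1.08), *Kcnh2* (-3.30), *Cacng7* (-6.15), *Piezo2* (-1.38), *Tbx1* (-1.29), *Mageh1* (-8.97), *Tsix* (-2.68) and *Sod3* (-1.83). Leaving out 1 library lost the difference between the clones in 7 of 9 fits for *Piezo2*, 6 of 9 for *Mest*, *Mylk*, *Cd59a*, *Sema3d*, *Cdh1*, *Pcdh9* and *Cacna1h*, 5 of 9 for *Myl9*, *Mcam*, *Cacng7* and *Tsix*, 2 of 9 for *Dgkg*, *H2-M3* and *Cxcl1* and 1 of 9 for *Dlk1*; the fall of *Pcdh9* against WT was lost in 4 of 9. The sg6 libraries held 3 counts or fewer in all for *Cacng7*, *Mageh1* and *Tsix*, so that these fitted values depend on the prior count. No explanation was weighed for any of these differences.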

How the results depend on the processing

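No direction was reversed under any alternative. Requiring at least 10 counts in every library left 372 higher and 730 lower genes, 41 of them higher beyond sg5, since fewer genes were tested. Testing against a log2 fold change of 1 left 226 higher and 594 lower genes, 32 and 46 beyond sg5, 148 list genes, and *Atrx* at -1.20 without a call. The stricter call (log2 beyond 2, adjusted p below 0.01) left 181 and 544 genes, 31 and 43 beyond sg5, 136 list genes, and *Atrx* at -1.20, short of that fold. Leaving out 1 library gave 465 to 661 higher and 1021 to 1342 lower genes, 67 to 93 and 101 to 153 beyond sg5, 239 to 309 list genes, and *Atrx* at -1.26 to -1.13. DESeq2 gave 571 and 1208 genes, with 103 and 192 beyond sg5. After thinning to the smallest library, 471 and 959 genes passed, a limit that depth sets. Centring on each chromosome's median, chosen after seeing the data, kept 491 of the 563 higher and 1111 of the 1167 lower genes. Of the single-gene values under alternatives, 7613 kept their call, 396 lost it, 7 gained it and 180 values without a test moved; the cause was not tested.

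Same-numbered sg6 and WT libraries had correlated deviations from their group means in replicates 1 (r = 0.381) and 3 (r = 0.430) but less in replicate 2 (r = 0.0983), and the labels tie the numbers to no shared day or culture, so the numbers were not taken as pairs for that comparison, although each sg6 and WT library correlated best with its own number. Between sg6 and sg5 every same-numbered pair was correlated and the numbers were taken as pairs. With the replicate block, 598 genes were higher and 1219 lower, 111 and 168 beyond sg5, 287 list genes were called and *Atrx* stayed at -1.20. No named call of sg6 against sg5 was lost with this pairing; against WT, *Kcnab1* was lost and *Fabp4* gained. In the rRNA-depleted libraries the block gave 273 and 499 of the polyA calls in place of 236 and 420.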

Other observations

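The 230 genes changed beyond the sg5 clone were laid out along the chromosomes, and runs of at least 3 of them within 7 consecutive tested genes, all in the same direction, were listed. On chromosome 11, the Schlafen genes *Slfn4* and *Slfn3*, which restrain growth of lymphoid cells, fell together with the neighbouring *Slfn10-ps* and *AI662270*. Since 15.1% of the 31-base stretches of *Slfn3* occur in *Slfn4*, these genes may not be fully separate signals. In the rRNA-depleted libraries *Slfn3* did not pass between the clones (edgeR test, adjusted p = 0.677), and *Slfn4* had too few counts to be tested. Other Schlafen genes of the cluster, named after their values were seen, were not part of the run: *Slfn2* was at 0.314, 0.412 and 0.511 CPM in WT and at 0, 0.0321 and 0.0178 CPM in sg6, whereas the log2 fold change against WT was -1.10 for *Slfn9*, -0.81 for *Slfn8* and 0.40 for *Slfn5* (adjusted p = 0.0273, 0.0038 and 0.388). On chromosome 5, *Cytl1* and the homeobox gene *Msx1* lay in such a run with the antisense gene *Msx1os*. *Msx1os* lies within *Msx1*, and as the strand setting was not stated, reads of these overlapping genes cannot be told apart. This run may therefore hold fewer than 3 separate signals. On chromosome 1 the run held *Sp100*, a nuclear body protein that interferon induces, and on chromosome 12 it held 3 predicted genes.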
